A study of Mus musculus with 16 samples.

Results

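The respiratory chain and ATP synthase genes of the nuclear genome were followed across 16 RNA-seq libraries of mouse bone-marrow-derived macrophages (BMDM). Genes were chosen by symbol, with earlier results of these data known. Taken were those that begin with Nduf (complex I subunits and their assembly factors) or Uqcr (complex III), and Sdha to Sdhd (complex II). Also taken were those that begin with Cox4 to Cox8 (complex IV) or Atp5 (ATP synthase). This gave 82 of the 9614 genes in the table. They comprised 37 complex I subunits, 6 complex I assembly factors, 4 complex II, 8 complex III, 11 complex IV and 16 ATP synthase genes. A symbol is not a function in every case: Ndufa4 is now usually counted as a complex IV subunit, Cox7a2l as a supercomplex assembly factor, and Atp5sl as a complex I assembly factor.

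All mice were male C57BL/6 animals aged 8 weeks that carried LysM-Cre, a Cre recombinase made in myeloid cells. WT mice were LysM-Cre:NELF-B wt/wt, and NELF-B KO mice were LysM-Cre:NELF-B fl/fl, in which Cre removes exon 4 of Nelfb in the cells that express it. Each genotype had 2 libraries of untreated BMDM, 3 of BMDM given LPS at 10 ng/ml and 3 of BMDM given the same LPS with the glucocorticoid dexamethasone (Dex) at 100 nM, both over 1 hr. The labels number the mice, which are lettered here: WT mice A, B and C and KO mice D, E and F. Each gave its own library for each treatment, except that mice C and F had no untreated library.

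Complexes I and II pass electrons from NADH and succinate to ubiquinone, complex III passes them on to cytochrome c, and complex IV passes them to oxygen. Complexes I, III and IV pump protons as they do so, and ATP synthase uses the proton gradient to make ATP. Most subunits are encoded in the nucleus and made on cytosolic ribosomes, while a small set is encoded in mitochondrial DNA, except that complex II is wholly nuclear. In macrophages, prolonged inflammatory activation is known to move metabolism away from respiration and towards glycolysis. NELF-B is a subunit of the negative elongation factor, which holds RNA polymerase II shortly after the start of transcription.

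Libraries held between 25000000 and 49700000 reads in the genes of the table, as recovered from the deposited values. The fewest were in the library of untreated WT mouse A. Nelfb, the deleted gene, lay between 5.59 and 6.21 log2 CPM (the deposited measure: a gene's reads scaled to the size of its library) in the WT libraries and between 3.27 and 4.38 in the KO libraries, with no overlap. The counts cover all exons of Nelfb, not exon 4 alone. Of 10 macrophage marker symbols, 9 were in the table. The missing symbol, Adgre1, is another name of Emr1, which was present. Cd68 ranged from 10.03 to 10.89 and Csf1r, the M-CSF receptor, from 11.36 to 11.93, while Lyz2, the lysozyme gene whose locus drives LysM-Cre, was lower, at 4.3 to 6.33. None of 8 lymphocyte markers was in the table analysed. Of the other lists, 1 of 9 neutrophil and progenitor, 1 of 6 dendritic cell, 2 of 7 erythroid and megakaryocyte and 5 of 6 stromal markers were present. Their part in the results below was not tested. These are bulk libraries, in which fewer cells of a type and less RNA per cell cannot be told apart.

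The library of untreated WT mouse A, named WT_CO_74 in the labels, stood apart in these genes. Against the median of the other 3 untreated libraries, its respiratory chain genes were shifted by a median of 1.17 on the log2 CPM scale, 2.25-fold, where the median over all genes was -0.01. Of the 82 genes, 78 were above that median, and 76 (92.7%) were at their highest of all 16 libraries, against 33.5% of all genes. As 1 library has no replicate, these are values without a test. Since it is 1 of only 2 untreated WT libraries, the main results that use the untreated WT group are given below with and without it. Markers moved with this library as well. Of the 9 macrophage markers, 4 were below all 15 other libraries in it: Emr1 was at 10.96 against 11.54 to 12.51, Itgam at 9.31 against 10.28 to 10.82, Mertk at 6.22 against 7.03 to 8.04 and Csf1r at 11.36 against 11.4 to 11.93. Cd68 was above the others, at 10.89 against 10.03 to 10.65. Of the 5 stromal markers, 4 were below all others. Summed levels of the macrophage markers were 13.08 on the log2 CPM scale in this library and 13.49 or more in each of the other 15. The part of these markers in the shift was not tested.

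**Figure D1:**
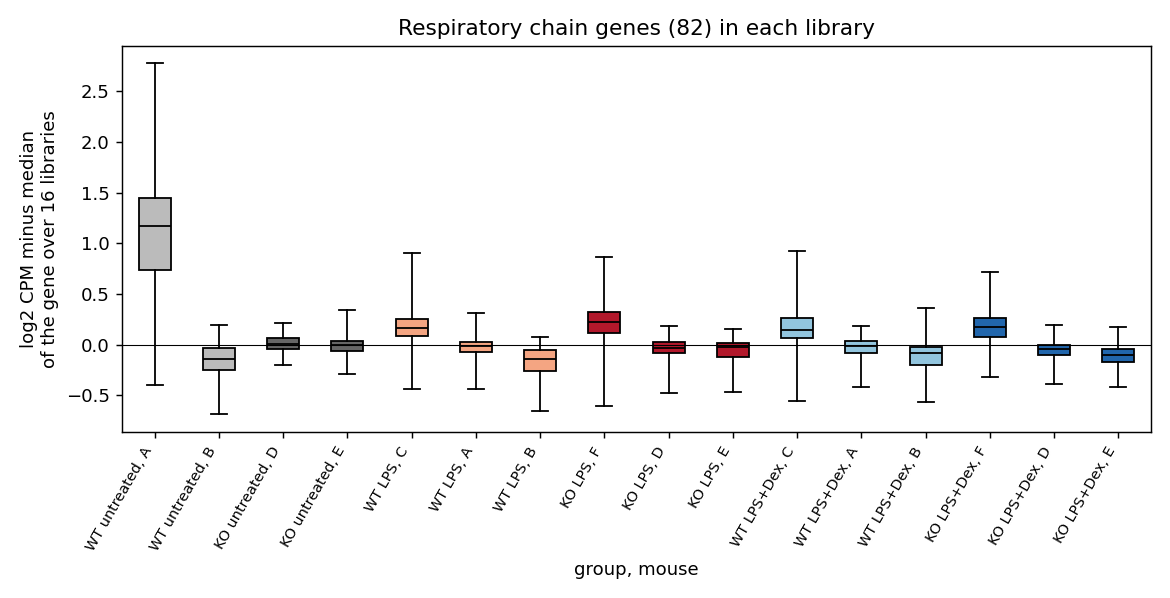
The vertical axis gives log2 CPM of each of the 82 genes minus its median over the 16 libraries, and each box is a library labelled by group and mouse (line, median; box, quartiles; whiskers, lowest and highest gene). The untreated WT library of mouse A has a median of 1.17, while the medians of the other 15 lie between -0.15 and 0.22.

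The shift was not the same in every complex. Its median was 1.3 for complex I subunits, 1.03 for complex I assembly factors, 1.23 for complex III and 1.25 for complex IV. It was smaller for ATP synthase, at 0.79, and smallest for complex II, at 0.27. The largest single shift was in Atp5e, the epsilon subunit of ATP synthase, which was at 9.53 log2 CPM in this library and between 6.37 and 7.03 in the other 15. Ndufa2, a small accessory subunit of complex I, was at 8.7 against 5.9 to 6.63. Ndufb7, another accessory subunit, was at 8.15 against 5.44 to 5.97. The other 2 of the 5 largest shifts were 2.05 in Ndufs6 and 2.01 in Ndufa11. Reads of Ndufa2 and its neighbour Tmco6, of Ndufs6 and Mrpl36, and of Ndufa11 and Vmac cannot be told apart where their exons overlap, because the counting was not stated to use strand.

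A few genes were not higher there. Cox7c, a small complex IV subunit, was at 3.28 log2 CPM in this library, within its range of 2.93 to 3.89 in the other 15. Ndufs1, the large iron-sulphur subunit of complex I, was at 5.93 and thus below the 6.26 to 6.53 of the others. Uqcrc2, a core subunit of complex III, was at 6.22 and also below the others, which lay between 6.5 and 6.84. Atp5g2, one of the genes for the c subunit of the ATP synthase ring, was at 4.91, within 4.68 to 5.5.

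Within complex II the members parted. Sdha, the flavoprotein that oxidizes succinate, was the steadiest gene of the complex: it was at 8.32 in the library of mouse A and between 8.11 and 8.18 in the other 15. Sdhb, the iron-sulphur subunit, was at 8.23 there against 6.95 to 7.34 elsewhere. The membrane anchors Sdhc and Sdhd were at 7.09 and 7.01 there, against 6.76 to 7.1 and 6.5 to 6.94. Thus only Sdhb moved by more than 1 log2 unit, a shift of 1.16.

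Transcript length moved with the shift. Nonmember genes with transcripts of up to 600 nucleotides were shifted by a median of 1.24 in this library, and those over 4000 nucleotides by -0.6. The respiratory chain genes are short, with a median transcript length of 760 nucleotides against 2858 over all genes. Within the same length classes their medians were 1.43 (24 genes of up to 600 nucleotides), 1.32 (26 genes from 600 to 1000), 1.02 (25 genes from 1000 to 2000) and 0.39 (7 genes from 2000 to 4000). Nonmembers in those classes had medians of 1.24, 0.97, 0.54 and -0.02. In the same library, the 38 cytosolic ribosomal protein genes were shifted by a median of 1.28 and the 75 mitochondrial ribosomal protein genes by 0.97. The 11 mitochondrially encoded genes in the table, with a median transcript length of 957 nucleotides, had a median shift of -1.72. Their shifts ran from -3.67 to 1.29, with 2 genes above 0. The part of transcript length in the shift was not tested.

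**Figure D2:**
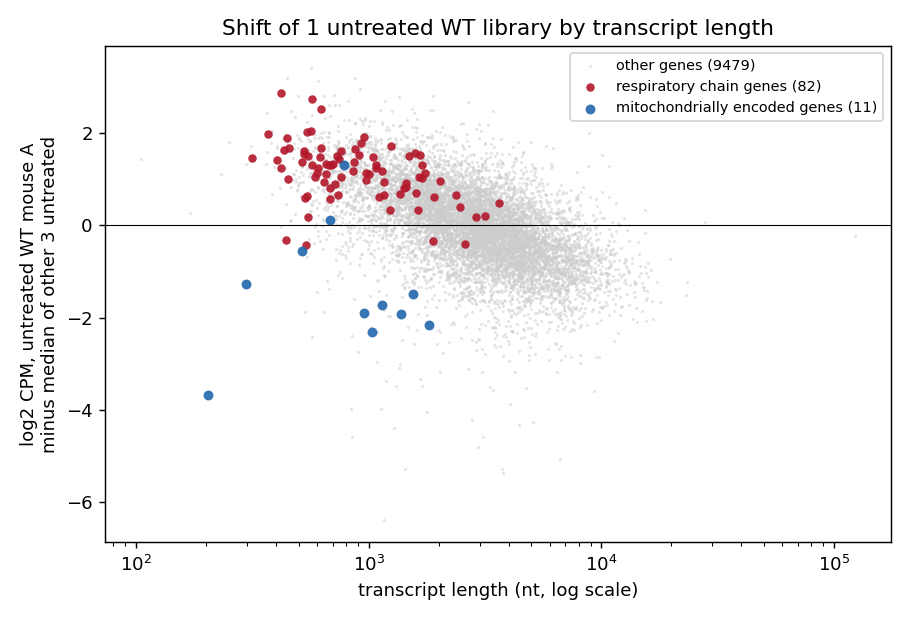
Each point is a gene, with its transcript length in nucleotides on a log axis and, on the vertical axis, its log2 CPM in the untreated WT library of mouse A minus the median of the other 3 untreated libraries. Grey points fall from short to long transcripts, the respiratory chain genes (red) lie mostly above 0 with a median of 1.17, and the mitochondrially encoded genes (blue) lie mostly below it with a median of -1.72.

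In the remaining 15 libraries the genes were steady. The median SD per gene was 0.16 without the library of mouse A and 0.35 with it, against 0.19 and 0.27 over all genes. Complex II varied least without it, with a median SD of 0.11, and complex IV and the complex I assembly factors most, at 0.22 each. Levels between genes were compared per kilobase of transcript, as means over these 15 libraries. Cox4i1, the regulatory subunit 4 of complex IV, was the highest at 8.73 log2 CPM per kilobase. Atp5b, the catalytic beta subunit, followed at 8.38, and the assembly factor Ndufaf4 was the lowest at 1.6. Ndufb4, an accessory subunit, had the lowest level of the complex I subunits, at 2.11, and Ndufa4 the highest, at 7.61. The 3 genes for the c subunit of ATP synthase were at 7.9 (Atp5g3), 6.36 (Atp5g2) and 5.82 (Atp5g1). Of the tissue isoforms of complex IV, the widely expressed forms Cox4i1, Cox6a1, Cox6b1, Cox7a2 and Cox8a were in the table analysed, at 6.85 to 8.73. Levels are less certain for Atp5c1, Atp5k, Atp5l, Ndufab1 and Uqcrh, which have pseudogene copies named after them. Copies under other names were not looked up, for Ndufb4 and Cox7c as for the other genes.

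A second, smaller difference followed the mice. Mice C (WT) and F (KO) are the pair whose library names carry an S number, the meaning of which is not stated. In LPS, mouse C was above both other WT mice in 72 of the 82 genes and mouse F above both other KO mice in 69. In LPS+Dex the counts were 68 and 75. These are 82.9 to 91.5% of the members, against 33.0 to 37.1% of all genes. The median difference was 0.22 to 0.28 on the log2 scale, and the mitochondrially encoded genes differed by -0.09 to -0.47. Cox8a, a small complex IV subunit, was at 7.78 in mouse C against 6.7 and 7.16 in the other WT mice in LPS, and at 8.01 in mouse F against 7.07 and 6.96 in the other KO mice. Cox5b, a peripheral complex IV subunit, was at 6.38 in mouse C against 5.39 and 5.16, and at 6.1 in mouse F against 5.53 and 5.37. As neither mouse has an untreated library, the LPS groups hold this pair and the untreated groups do not, so the difference between mice and part of an unpaired LPS change cannot be told apart.

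The promoters of these genes were searched for motif letters as a description. Nuclear respiratory factor 1 (NRF1), ETS family factors such as GABP, and YY1 are known to bind promoters of respiratory genes. RefSeq promoter windows (GRCm38.p6, 250 bases before to 50 after the start) were found for 69 of the 82 genes, as 74 windows with a median GC content of 58.5%, against 61.0% for all genes of the table. Core letters of each motif were searched on both strands. The NRF1 core GCGCATG was in 15 windows (20.3%), against 7.55% of the windows of all genes in the table and 3.91% of all promoters. The YY1 core AAGATGG was in 10 windows (13.5%), against 7.63% and 6.34%. The ETS core CCGGAAG was in 17 windows (23.0%), against 19.4% and 8.86%. No match overlapped a match of another motif, 6 genes held both the NRF1 and the ETS letters, and a match describes letters only. The stretches printed are those of genes that the results turn on, read 5′ to 3′ on the gene's strand, with the NRF1 letters (first 5) or the YY1 letters (last 4) in capitals; Sdhb and Cox7c hold them on the opposite strand.
Atp5k (chr5:108434433-108434459, minus strand): tttcactgcgGCGCATGcgcctttctg
Ndufa11 (chr17:56717692-56717718, plus strand): cctgcactgcGCGCATGcgcgcacgcc
Cox5b (chr1:36691426-36691452, plus strand): aggcagaactGCGCATGtgcggcgtct
Ndufb8 (chr19:44555420-44555446, minus strand): acccgcttttGCGCATGtgcagagtga
Sdhb (chr4:140961208-140961234, plus strand): gcccagtgggCATGCGCcctacgggcc
Ndufs6 (chr13:73328433-73328459, minus strand): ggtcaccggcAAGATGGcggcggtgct
Ndufa3 (chr7:3617385-3617411, plus strand): cgccaagaacAAGATGGccgggagtaa
Ndufc1 (chr3:51408917-51408943, minus strand): cctgcggaacAAGATGGcgccgtccgt
Cox7c (chr13:86046781-86046807, minus strand): gttgtaactcCCATCTTccctttcggt
The NRF1 letters began before the start by 50 bases in Atp5k, 60 in Ndufa11, 51 in Cox5b and 53 in Sdhb, and 6 bases after it in Ndufb8. The YY1 letters began after the start by 33 bases in Ndufs6 and by 22 in Ndufa3 and in Ndufc1, and 2 bases before it in Cox7c. In the library of mouse A the shift was 1.97 for Atp5k, 2.01 for Ndufa11 and 1.16 for Sdhb, and 2.05 for Ndufs6 and -0.43 for Cox7c. The part of these letters in the shift was not tested.

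The first comparison asked how loss of NELF-B changed these genes at rest. No respiratory chain gene differed between KO and WT macrophages at an adjusted p under 0.05 (limma, Benjamini-Hochberg over 9614 genes), and neither did any other gene (background 0.0%). Nelfb itself was thus not called, so the lack of calls cannot show that these genes were unchanged. None of the 82 had an unadjusted p under 0.05. The fitted medians by complex were -0.45 for complex I subunits, -0.43 for complex I assembly, -0.08 for complex II, -0.48 for complex III, -0.44 for complex IV and -0.29 for ATP synthase, with -0.44 over all members and 0.02 over all genes. These rested on the library of mouse A. Ndufa2 was at 8.7 and 5.9 log2 CPM in the 2 untreated WT libraries and at 6.02 and 5.96 in the 2 KO libraries, a difference of -1.31 (SE 0.91, adjusted p = 0.889 in limma). Atp5e differed by -1.26 (SE 1.02) and Ndufb7 was at 8.15 and 5.62 in WT and at 5.71 and 5.64 in KO. Thus both KO libraries lay between the 2 WT libraries in all 3 genes. Without the library of mouse A, the median over members became 0.15, with medians by complex of 0.02 (complex II) to 0.22 (complex IV), and still no member passed, whereas without the other WT library, of mouse B, 68 of the 82 passed. In that last fit 4203 of all genes (43.7%) passed, and the WT group was 1 library.

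Pairs of 1 KO and 1 WT mouse show the same. Some libraries of mice E and B share a label token, and those of F and C carry the S number, which leaves D with A. In untreated cells the KO minus WT median was -1.13 for mice D and A (78 of 82 genes lower) and 0.14 for mice E and B (73 higher). In that second pair the medians were 0.33 for complex IV, 0.18 for complex I subunits, 0.13 for ATP synthase, 0.12 for complex III, 0.08 for complex I assembly and 0.02 for complex II. The genotype difference thus had opposite directions in the 2 untreated pairs.

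**Figure D3:**
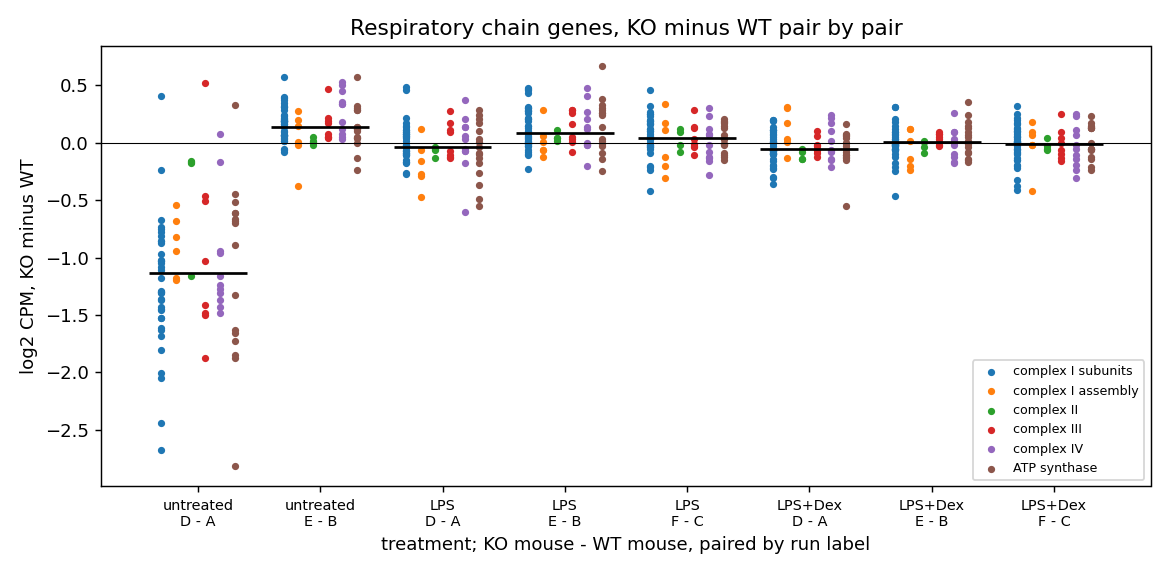
The vertical axis gives log2 CPM of a KO library minus that of the WT library of the pair, and each point is 1 of the 82 genes, coloured by complex, with the median as a black line. The untreated pair of mice D and A has a median of -1.13, while the medians of the other 7 pairs lie between -0.05 and 0.14.

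Under LPS and under LPS+Dex, NELF-B KO and WT cells differed little in these genes. No member passed the test in either, with 0.0% of all genes called in each. At an unadjusted p under 0.05 there were 1 and 2 members, where 8.44% and 11.3% of all genes had such a p. The median over members was 0.03 in LPS and -0.01 in LPS+Dex, and over all genes 0.0 and 0.01. By pair, the medians were -0.04, 0.09 and 0.04 in LPS and -0.05, 0.01 and -0.01 in LPS+Dex (mice D and A, E and B, F and C). Medians by complex ran from -0.06 (complex I assembly) to 0.07 (complex IV) in LPS and from -0.05 (complex II) to 0.03 (complex I assembly) in LPS+Dex.

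Groups seldom separated. In LPS, 2 of the 82 genes were higher in all KO than in all WT libraries (5.91% of all genes were), and 2 were lower (7.82%). In LPS+Dex these counts were 1 (8.93%) and 3 (8.83%). Ndufs8, which carries iron-sulphur clusters of complex I, was the only gene to separate in the same direction under both treatments, in libraries of the same mice. It was at 5.29, 5.27 and 5.5 log2 CPM in the KO libraries of mice D, E and F in LPS, and at 4.8, 5.06 and 5.04 in the WT libraries of mice A, B and C. The difference was 0.39 (SE 0.12), with an adjusted p of 0.347 in limma. In LPS+Dex it was 0.24 (SE 0.1, adjusted p = 0.432 in limma). At rest, Ndufs8 was at 5.41 and 5.37 in the KO libraries and at 6.49 and 5.14 in the WT libraries of mice A and B. In the opposite direction, Ndufa12, an accessory subunit of complex I, differed by -0.3 (SE 0.18) in LPS and by -0.38 (SE 0.13) in LPS+Dex, with an adjusted p of 0.335 in limma for the latter. Its KO values in LPS+Dex were 4.03, 3.99 and 4.3, below the WT values of 4.34, 4.45 and 4.68.

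Mitochondrially encoded genes had a median KO minus WT difference above 0 in each of the 8 pairs of libraries. These repeat the same mice across treatments and are not independent. The median was 1.72 in untreated mice D and A, and 0.07 to 0.54 in the other pairs. Single genes could go the other way: untreated, mt-Co3 was at 4.2 in mouse D and at 5.26 in mouse A. None of the 11 passed the test in any genotype comparison, with fitted medians of 1.06 untreated (0.32 without the library of mouse A), 0.36 in LPS and 0.32 in LPS+Dex. In the fitted genotype differences, medians of the genes of the pathway outside the rule, untreated, in LPS and in LPS+Dex, were -0.34, -0.04 and -0.04 for 6 cytochrome c and complex III genes, -0.33, 0.04 and 0.03 for 21 complex IV assembly genes, and -0.08, 0.01 and -0.02 for 14 assembly genes of complexes I, II and V. They were -0.02, -0.07 and -0.1 for 13 citrate cycle genes and 0.08, 0.01 and 0.09 for 13 regulators of mitochondrial biogenesis. Without the library of mouse A, the untreated medians of these 5 lists lay between -0.04 and 0.16. No gene of these lists passed in any genotype comparison.

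The next comparison asked how LPS changed these genes within 1 hr. In WT cells 0 of the 82 genes passed the test (adjusted p under 0.05 in limma), where 6.91% of all genes did. An unadjusted p under 0.05 was found for 22 members, and for 27.8% of all genes. In KO cells 0 passed, where 4.01% of all genes did, and 0 had such an unadjusted p, against 9.14% of all genes. All groups shared the estimate of spread in this fit, so the library of mouse A entered the KO test too. Atp5e had an SE of 0.59 in KO cells, where its SDs were 0.15 in LPS and 0.04 untreated. The lack of calls in KO cells thus cannot show that LPS left these genes unchanged. The fitted median was -0.47 in WT and 0.05 in KO cells, against 0.02 and -0.01 over all genes. In WT cells the medians were -0.56 for complex I subunits, -0.55 for complex III, -0.49 for ATP synthase, -0.38 for complex I assembly, -0.36 for complex IV and -0.1 for complex II. Without the library of mouse A the WT median became 0.13 with 0 members called, and the medians by complex lay between 0.04 (complex II) and 0.28 (complex IV). Without that of mouse B it became -1.13 with 74 called, in a fit that called 5390 of all genes (56.1%) and in which the untreated WT group was 1 library.

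Within the same mouse, WT mouse A and the other 3 mice parted. The LPS minus untreated median was -1.16 in mouse A, where 78 of the 82 genes fell in value. It was -0.00 in WT mouse B, -0.02 in KO mouse E and -0.04 in KO mouse D. Atp5e was at 9.53 before and 6.68 after LPS in mouse A, and at 6.37 in both libraries of mouse B. In the KO mice it was at 6.66 and 6.75 (mouse E) and at 6.71 and 6.78 (mouse D). Cox4i1 was at 9.68 and 8.4 in mouse A, at 8.2 and 8.27 in mouse B, at 8.28 and 8.25 in mouse E and at 8.25 and 8.22 in mouse D. In the 3 mice other than A, the medians of each complex stayed between -0.09 and 0.05, while mouse A had -0.21 in complex II and -1.36 in complex I subunits. After LPS, the members of mouse A had a median deviation of -0.01 from their own medians over the 16 libraries.

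**Figure D4:**
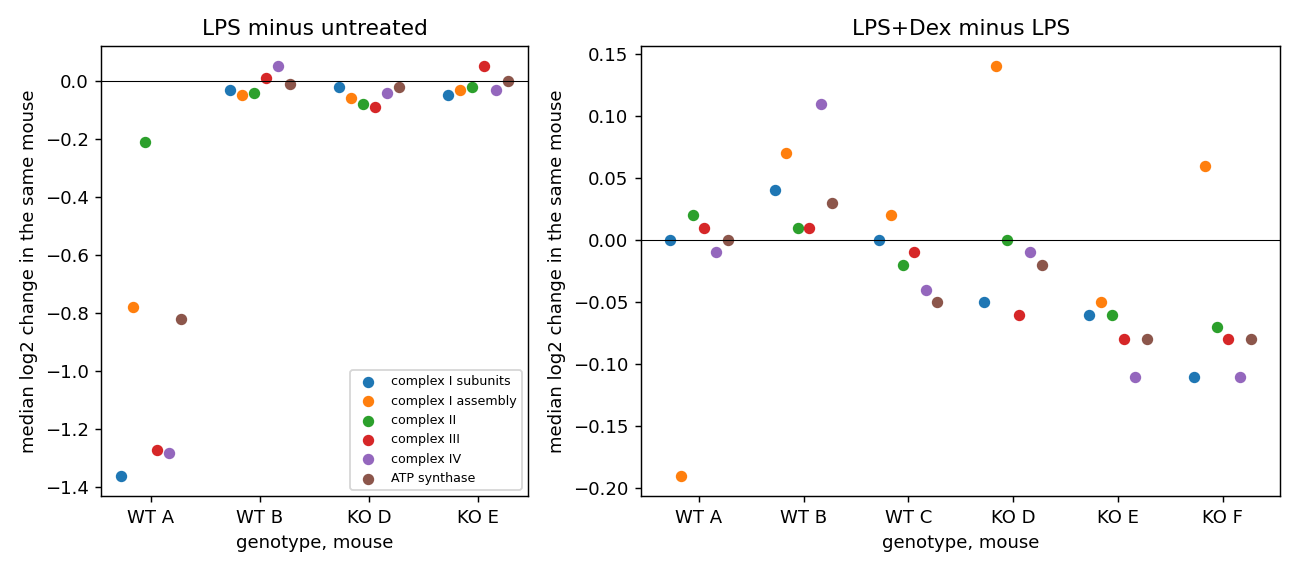
Each point is the median log2 change of a complex within 1 mouse, for LPS minus untreated (left) and LPS+Dex minus LPS (right, on a finer axis). WT mouse A lies at -0.21 to -1.36 for LPS with the other 3 mice near 0, and for Dex the medians of the complexes lie between -0.19 and 0.14.

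The difference of the LPS response between KO and WT had a fitted median of 0.51, with 0 members called (0.0% of all genes) and 0 at an unadjusted p under 0.05 (2.3% of all genes). Without the library of mouse A this median was -0.11. With the mouse as a block and without that library, 5 members passed in KO cells (6.1%), against 27.9% of all genes. This fit was added after the data had been seen. Lower were Uqcrq, a small complex III subunit, by -0.31 (SE 0.08), Atp5g2 by -0.27 (SE 0.09), Ndufv2 of the NADH-binding module by -0.21 (SE 0.05) and Ndufa8 by -0.17 (SE 0.04). Ndufa2 was higher, by 0.16 (SE 0.05). Their adjusted p-values in limma were between 0.0087 and 0.048. Uqcrq was at 5.89 before and 5.42 after LPS in mouse E and at 5.82 and 5.61 in mouse D. Its values in both WT pairs were 5.42 and 5.5 (mouse B) and 7.23 and 5.33 (mouse A). In that fit 0 members passed in WT cells (14.9% of all genes) and 0 in the difference between genotypes (0.187%).

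Of the genes of the pathway outside the rule, few passed for LPS. In WT cells, Coa7 of the 21 complex IV assembly genes was lower by -0.62 (SE 0.17, adjusted p = 0.048 in limma). Of the 14 assembly genes of complexes I, II and V, Tmem186 was lower by -0.85 (SE 0.16) and Sdhaf2 by -0.43 (SE 0.11). Tmem186 was lower in KO cells too, by -0.73 (SE 0.16, adjusted p = 0.0137 in limma). Polg2 and Peo1, which act in replication of mitochondrial DNA, were the 2 of 13 biogenesis genes that passed in WT cells, at -1.11 and -0.97. Mrpl49 was the 1 of 75 mitochondrial ribosomal protein genes, at -0.93. No citrate cycle, cytochrome c, mitochondrially encoded or cytosolic ribosomal protein gene passed in either genotype. Most of these WT calls were lost without the library of mouse A. Without it Coa7 was at -0.3, Sdhaf2 at -0.29, Polg2 at -0.61, Peo1 at -0.57 and Mrpl49 at -0.53, with adjusted p-values in limma of 0.0552 to 0.451. Tmem186 kept its WT call, at -0.88 (adjusted p = 0.0168 in limma). Its KO call was lost on leaving out the untreated library of mouse D (-0.82, adjusted p = 0.0661 in limma) or that of mouse E (-0.64, adjusted p = 0.223 in limma).

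The last comparison asked what Dex added to LPS. The library of mouse A that stood apart is not in it, and each mouse was compared with itself. In WT cells 0 of the 82 genes passed, where 10.4% of all genes did, with 3 at an unadjusted p under 0.05 and a median of 0.01 (all genes, -0.01). In NELF-B KO cells 7 of the 82 passed (8.54%), where 14.1% of all genes did. All 7 were lower, where 6.99% of all genes were called lower, and 21 members had an unadjusted p under 0.05, against 25.3% of all genes. The share of members called, 8.54%, was thus below the 14.1% called in either direction and a little above the 6.99% called lower. None of the 7 calls was kept without mouse F, with no block, with a block over all 16 libraries, or at an adjusted p under 0.1 with a 1.3-fold minimum. The median over members was -0.06, and 67 of the 82 fitted changes were below 0 (81.7%, against 51.2% of all genes). In 34 genes (41.5%) the value fell in all 3 KO mice, against 22.4% of all genes, while in WT mice 7 (8.54%, against 22.1%) did so.

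These changes were small. Among the 4 complex I genes, the membrane subunit Ndufa11 was at 5.36, 5.2 and 5.3 log2 CPM in LPS in mice E, D and F and at 5.16, 5.0 and 5.2 with Dex, a change of -0.17 (SE 0.05, adjusted p = 0.0359 in limma). Ndufa2 went from 6.19, 6.08 and 6.43 to 6.08, 5.98 and 6.23, a change of -0.14 (SE 0.04, adjusted p = 0.0391 in limma). Each of these fell in every KO mouse. Ndufb10, an accessory subunit, went from 5.52, 5.57 and 5.88 to 5.42, 5.46 and 5.7, a change of -0.13 (SE 0.04, adjusted p = 0.039 in limma). Ndufb8, also an accessory subunit, went from 6.4, 6.37 and 6.55 to 6.31, 6.27 and 6.36, a change of -0.12 (SE 0.04, adjusted p = 0.0453 in limma). In Ndufb8 the values of the 3 mice with Dex lay below all 3 values without it. The highest Ndufa11 value with Dex equalled the lowest without it as rounded, and in Ndufa2 and Ndufb10 it was higher. Of all members, 2 separated downward in KO cells, both complex I subunits. The share of all genes that did so is not given here.

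Of the complex IV genes, Cox6b1, which lies on the outer face of the enzyme, went from 7.35, 7.23 and 7.55 to 7.22, 7.1 and 7.33, a change of -0.16 (SE 0.04, adjusted p = 0.0181 in limma). Cox5b went from 5.37, 5.53 and 6.1 to 5.26, 5.27 and 5.99, a change of -0.16 (SE 0.05, adjusted p = 0.0368 in limma). In Cox5b the mice differed by more than the treatments did. Of the ATP synthase genes, Atp5o, the oligomycin sensitivity subunit of the stalk, went from 6.7, 6.49 and 6.67 to 6.56, 6.38 and 6.58, a change of -0.12 (SE 0.04, adjusted p = 0.0467 in limma). Its exons overlap those of Donson, and those of Ndufb8 overlap Gm20538. Atp5o also fell in value in all 3 WT mice, at -0.02, -0.08 and -0.13.

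**Figure D5:**
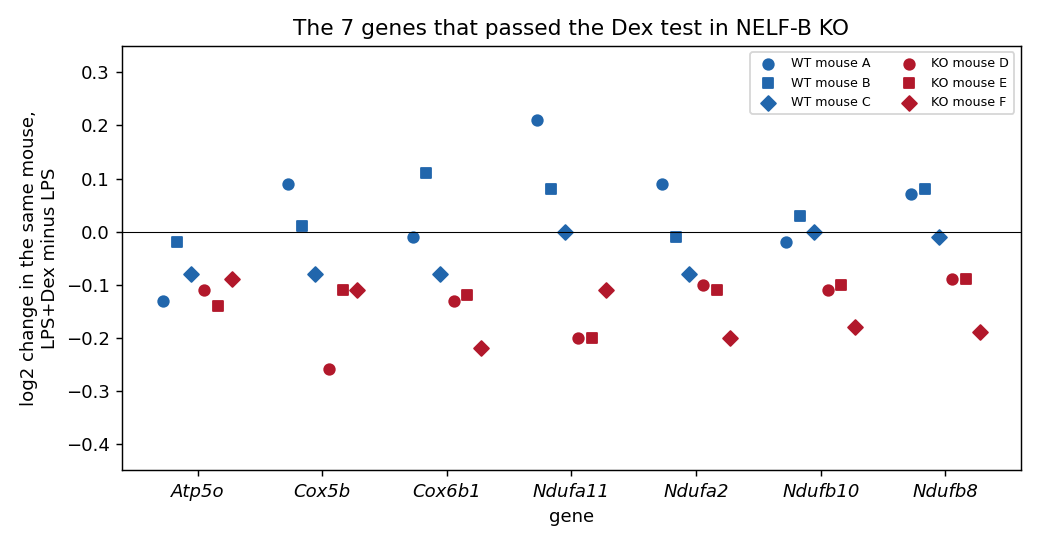
The vertical axis gives the log2 change within a mouse, LPS+Dex minus LPS, of the 7 genes that passed in NELF-B KO cells, with KO mice in red and WT mice in blue. All 21 KO points lie below 0, between -0.26 and -0.09, and the WT points lie between -0.13 and 0.21. The genes were chosen by their KO values, and none passed the direct test of the difference between genotypes.

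By complex, the Dex medians in KO cells were -0.07 for complex I subunits, -0.06 for complex IV, -0.05 for complex III, -0.04 for complex II, -0.04 for ATP synthase and 0.04 for complex I assembly. In WT cells they lay between -0.06 (complex I assembly) and 0.01. All 8 complex III and all 4 complex II genes had fitted changes below 0 in KO cells, of which none passed. The largest change upward was in Cox7c, at 0.25 (SE 0.1, adjusted p = 0.149 in limma). By mouse the medians were 0.04, -0.01 and -0.00 in WT mice B, C and A and -0.07, -0.03 and -0.09 in KO mice E, D and F. The KO medians were all below the WT medians.

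The difference between the Dex responses of KO and WT cells was tested directly. None of the 82 passed, where 0.0104% of all genes (1 gene) did, and 15 had an unadjusted p under 0.05 (against 6.96% of all genes). The median was -0.05 over members and 0.01 over all genes. The largest difference upward was in Cox7c, at 0.31 (SE 0.15, adjusted p = 0.72 in limma). The largest downward was in Ndufa11, at -0.27 (SE 0.07, adjusted p = 0.343 in limma), whose Dex changes were 0.08, -0.00 and 0.21 in WT mice B, C and A. Next were Ndufa3, at -0.26 (SE 0.07), and Ndufs5, at -0.24 (SE 0.11, adjusted p = 0.718 in limma), both accessory subunits of complex I. Ndufc1, another accessory subunit, was also at -0.24. Ndufa3 and Ndufc1 changed by 0.15 and 0.16 (SE 0.05 each) in WT cells and passed in neither genotype.

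Outside the rule, Sdhaf1, an assembly factor of complex II, was higher with Dex by 0.91 (SE 0.1, adjusted p = 2.36e-05 in limma) in WT cells and by 0.83 (SE 0.1) in KO cells. Ppargc1b, a coactivator of mitochondrial genes, was higher by 0.58 (SE 0.1) and 0.46 (SE 0.1). Each was the gene of its list with the lowest adjusted p in both genotypes. Tmem70, which helps to assemble ATP synthase, was higher in WT cells by 0.28 (SE 0.05). In KO cells Pprc1 and Polg2 were lower by -0.16 and -0.37, Pet100, a complex IV assembly factor, by -0.22, and mt-Atp8 by -0.25, the 1 of 11 mitochondrially encoded genes that passed. Mrpl44 and Mrpl45 were higher in both genotypes, at 0.24 and 0.15 in WT and at 0.22 and 0.14 in KO cells, and Rps21 was the 1 of 38 cytosolic ribosomal protein genes that passed in KO cells, at -0.13. No citrate cycle or cytochrome c gene passed in either genotype. Sdhaf1 passed in both genotypes under every alternative run. The KO calls of Ppargc1b, Pprc1, Polg2, Pet100, mt-Atp8, Mrpl44, Mrpl45 and Rps21 were lost without mouse F, and the WT calls of Mrpl44 and Mrpl45 without mouse B. Of the cell type markers, Cd14 was higher with LPS in both genotypes, at 1.47 in WT (1.71 without the library of mouse A) and 1.66 in KO cells. With Dex, Mertk and Cd14 were higher in WT cells, by 0.19 and 0.21, and Lyz2 and Spi1 were lower, at -0.19 and -0.13. In KO cells Mertk and Cd14 were higher, by 0.22 and 0.34, and Spi1 was lower, at -0.24. S100a8, a neutrophil gene, was higher in KO cells by 0.3, a call that was lost without mouse F. No dendritic cell, erythroid or stromal marker passed in any comparison.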

How the data were processed

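The authors sequenced polyA RNA as paired reads of 50 bases, mapped them to mm10 in CLC Bio Genomic Workbench and counted unique exon reads. Per the labels, CASAVA 1.8, FastQC and edgeR were used. The deposited values are log2 CPM after the authors' TMM scaling. A further 18 columns of the authors' p-values and adjusted p-values were not used. Each deposited library has a floor of -5.15 log2 CPM, and values under 3 CPM gave whole reads in 100.0% of cases (tolerance 0.1), from which depth was computed.

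Values were tested with limma 3.58.1 (trend) in R 4.3.3 over 9614 genes, with Benjamini-Hochberg adjustment and a call at an adjusted p under 0.05 with no fold minimum. NELF-B loss was fitted within each treatment, LPS over 16 libraries in 6 groups, and Dex over the 12 LPS and LPS+Dex libraries with the mouse as a block. Libraries of a mouse come from the same animal, and their deviations from the group means correlated (r = 0.78 to 0.94 for LPS and LPS+Dex, 0.19 to 0.82 for untreated and LPS, the lowest in mouse A). The test was tried on simulated data. Transcript lengths and overlaps came from GENCODE vM21 (GRCm38), with lengths for 99.6% of genes, and overlaps were looked up for the 82 genes only. Python 3.11.15 and pandas 2.3.3 were used for summaries.

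Members and gene lists were chosen with earlier results of these data known. Named were the genes that passed, those highest, lowest and most variable in each complex, all Sdh genes, isoform sets, the 5 largest and 5 smallest shifts in WT_CO_74, the 3 largest changes each way where none passed, and passing genes of the lists. Not all of these are printed. Alternatives were log2(CPM + 1), a mean log2 CPM above 1, centring, voom, other call rules, blocks and leaving out each library.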

Additional observations from a re-analysis of the deposited data

Results flagged for a closer look

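Ndufa3 and Ndufc1, 2 accessory subunits of complex I, drew attention for their Dex change. It went up in every WT mouse and down in every KO mouse. Ndufb7 showed the same signs, as did Uqcr10 of complex III, whose change in WT mouse C was 0.0 after rounding. The share of all 9614 genes with this pattern was not computed, so whether the pattern is rare cannot be told. In Ndufa3 the changes were 0.27, 0.04 and 0.13 on the log2 scale in WT mice B, C and A and -0.13, -0.04 and -0.16 in KO mice E, D and F, a difference of -0.26 (SE 0.07). In Ndufc1 they were 0.12, 0.14 and 0.22 in WT and -0.10, -0.05 and -0.06 in KO mice, a difference of -0.24 (SE 0.07). The difference itself was tested and passed in neither, with an adjusted p of 0.353 for Ndufa3 and 0.48 for Ndufc1 (limma over 9614 genes). The exons of Ndufa3 overlap those of Tfpt.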

How the results depend on the processing

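Counts of members called depended most on the 2 untreated WT libraries. Over fits that left out each library in turn, they ranged from 0 to 68 for NELF-B loss untreated, from 0 to 74 for LPS in WT, from 0 to 61 for the difference of the LPS responses and from 0 to 4 for Dex in KO; each upper end but the last came from leaving out WT mouse B. For Dex in KO, where 7 passed, 0 remained without mouse F, 1 without mouse D and 4 without mouse E, and 0 passed with no replicate block, with a replicate block over 16 libraries, or at an adjusted p under 0.1 with a 1.3-fold minimum. LPS in WT gave 1 at an adjusted p under 0.1 with a 1.5-fold minimum, and LPS in KO gave 5 with a replicate block without WT_CO_74, which was added after the data had been seen. The replicate block over 16 libraries changed no LPS call of a member. Of 129 alternative counts, 115 stayed within 1.5 times the main count and 14 did not. With voom on recovered reads 9 members passed for Dex in KO. The shift of WT_CO_74 was 1.16 to 1.18 under all alternatives run. The untreated and LPS tests are limited by their 2 untreated libraries per genotype. The main LPS tests of both genotypes also share an estimate of spread that includes WT_CO_74.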
